A study of Mus musculus with 10 samples.

Results

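The 29 genes described here make cholesterol or keep its amount in check. They were chosen as a list of names, and each was read from the probe sets (groups of short probes for 1 transcript) that the array annotation pairs with that 1 gene. A gene with several was read from its brightest one, averaged across the 10 arrays. In this way 24 of the 29 genes could be measured, among 17097 genes in all; Pmvk, Acat2, Abca1, Soat1 and Nr1h2 were not analysed here. The 24 comprise 18 enzymes of the synthesis pathway, 5 genes that control it and 1 exporter, Abcg1.

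Cells build cholesterol from acetyl-CoA. A first set of enzymes leads through mevalonate to farnesyl diphosphate, and a second set joins a pair of these units to squalene, closes the rings to lanosterol and trims lanosterol to cholesterol. The transcription factor SREBP-2 (gene Srebf2) turns on nearly all of these enzymes when sterols run low. Its escort SCAP carries it out of the endoplasmic reticulum, and INSIG proteins hold it back when sterols are plentiful. The liver X receptors work the other way and turn on exporters such as ABCG1 when sterols pile up. Adipose tissue holds a large store of the body's cholesterol at the surface of its lipid droplets, and the macrophages that gather in obese fat take up and export cholesterol too.

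The samples were epididymal white adipose tissue (the fat pad beside the testis) from male C57/Bl6 mice. There were 3 Casp1-/- arrays, 3 ASC-/- arrays and 4 wild-type (WT) arrays, with RNA of 1 mouse on each per the labels. Casp1-/- mice lack the protease caspase-1, and ASC-/- mice lack its adaptor, encoded by Pycard. All mice, WT included, entered a 16-week high fat diet (45 energy% from fat) at an age of 8 to 12 weeks. The labels do not say how the null lines were made, whether WT mice were littermates, or how mice were housed. No lean diet was analysed here, so every level below belongs to mice on the high fat diet.

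All values are log2 signals, so a difference of 1 is 2-fold. Signals of different genes depend on their probes, and levels are compared only within a gene. Casp1 lay at 4.85 ± 0.14 in Casp1-/- fat against 9.32 ± 0.55 in WT, and Pycard at 3.40 ± 0.27 in ASC-/- fat against 9.82 ± 0.62 in WT (SD, n = 3 null arrays and 4 WT arrays each). Control probe sets that match no mouse RNA had array medians of 2.91 to 3.15 and single values up to 5.01. The 7 measured adipocyte markers averaged between 12.30 and 12.41 on Casp1-/- arrays, between 11.56 and 11.88 on ASC-/- arrays, and between 11.09 and 11.99 on WT arrays. The 20 macrophage markers averaged 8.97 to 9.47, 10.78 to 11.29 and 10.14 to 11.54 on the arrays of those genotypes, in that order. Poly-A spike-ins, bacterial transcripts added to the RNA, averaged 7.51 to 8.07 on the Casp1-/- arrays and 7.80 on WT replicate 1, against values between 6.21 and 6.30 for ASC-/- and between 5.76 and 6.50 for WT replicates 2 to 4. Between Casp1-/- and WT, the 1 WT array with spike-in signal like that of the Casp1-/- arrays is therefore replicate 1, and results are also given against it. No ASC-/- array had such signal, so between Casp1-/- and ASC-/- genotype and spike-in signal cannot be told apart. Values of that comparison with the spike-in set as a block are linked only through the WT arrays. They too rest on WT replicate 1. The signal at the 3' end of the actin transcript minus that at its 5' end also differed between arrays. It was 0.82 to 0.98 on the Casp1-/- arrays and 0.54 to 0.67 on the ASC-/- arrays, without overlap. On WT replicates 1 to 4 it was 1.05, 0.91, 0.53 and 0.46. This actin 3' minus 5' signal serves below as a covariate in an alternative fit. The labels give no batch.

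The mean level of the synthesis enzymes overlapped between the 3 genotypes. The mean log2 signal of the 18 was 8.13, 7.97 and 8.18 on the Casp1-/- arrays, 7.92, 8.23 and 8.27 on the ASC-/- arrays, and 8.31, 8.20, 7.75 and 7.89 on WT replicates 1 to 4. These ranges overlap, and the WT arrays span both of the others. The group means were 8.09 ± 0.11 in Casp1-/-, 8.14 ± 0.19 in ASC-/- and 8.04 ± 0.26 in WT (SD, n = 3, 3 and 4). Over all 24 genes the means were 8.23 ± 0.092, 8.27 ± 0.16 and 8.19 ± 0.21 in the same order.

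**Figure D1:**
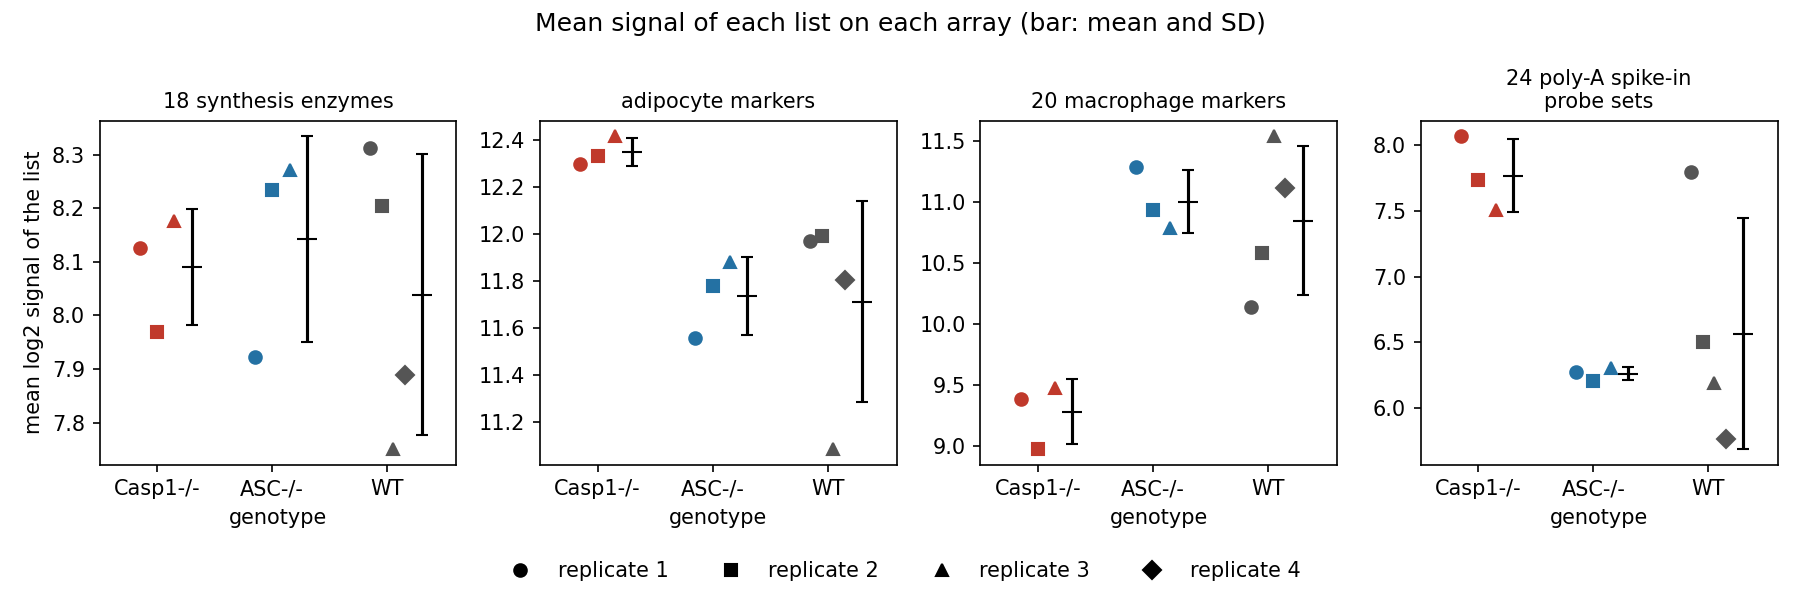
Mean log2 signal per array (y axis) of the 18 synthesis enzymes, 7 adipocyte markers, 20 macrophage markers and 24 poly-A spike-in probe sets, by genotype (x axis: Casp1-/-, ASC-/-, WT), with marker shape for the replicate and a bar for mean and SD. The enzymes overlap between the genotypes (WT arrays from 7.75 to 8.31), while the macrophage markers are lower on every Casp1-/- array (8.97 to 9.47) than on any other.

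Against WT, 2 of the 24 genes changed in Casp1-/- fat, and both fell (limma, Benjamini-Hochberg adjusted over all 17097 genes). That is 8.33% of them, beside 8.17% of all genes tested (4.31% rose and 3.86% fell), a share near that of the whole array. At an unadjusted p under 0.05, 4 of 24 differed, beside 27.6% of all genes. Both were also lower than in ASC-/- fat, where again 2 of 24 fell and 0 rose, beside 7.39% of all genes tested (3.54% rose and 3.85% fell). At an unadjusted p under 0.05, 5 of 24 differed there, beside 26.0% of all genes. In ASC-/- fat 0 of 24 passed against WT (limma, 0 of 24 also at an unadjusted p under 0.05), beside 0.0351% of all genes (0.0175% rose and 0.0175% fell) and 2.00% at the unadjusted p. The arrays of ASC-/- and WT overlapped in all 24 genes, beside 3.19% of all genes in which they did not. The median difference of the 24 genes was 0.035 for Casp1-/- minus WT and 0.085 for ASC-/- minus WT, with medians of 0.041 and 0.0050 over all genes. For Casp1-/- minus ASC-/- it was -0.025, with 0.042 over all genes. These medians hung on single mice. Without WT replicate 3 the first pair was -0.039 and 0.0054, and without WT replicate 1 it was 0.11 and 0.17. Over all single arrays left out, the ranges were -0.039 to 0.11 for Casp1-/- minus WT, 0.0054 to 0.17 for ASC-/- minus WT and -0.11 to 0.069 for Casp1-/- minus ASC-/-. The Casp1-/- and ASC-/- comparisons use the same WT arrays.

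The first gene that fell was Msmo1, which encodes the methylsterol monooxygenase that starts the removal of methyl groups from lanosterol's derivatives. Its log2 signal was 9.34, 9.40 and 9.52 on the Casp1-/- arrays, 9.80, 10.02 and 9.98 on the ASC-/- arrays, and 9.72, 9.80, 10.04 and 9.83 on the WT arrays. Every Casp1-/- array lay below every other array. The difference was -0.43 ± 0.097 against WT, a 1.34-fold fall (SE, limma adjusted p = 0.0332), and -0.51 ± 0.10 against ASC-/- (SE, limma adjusted p = 0.0244). With the spike-in set as a block it was -0.29 ± 0.14 against WT and missed the threshold (SE, limma adjusted p = 0.464), as did the difference of -0.34 against ASC-/- (limma adjusted p = 0.648). With the actin 3' minus 5' signal as covariate, the call against ASC-/- was lost as well (-0.41, limma adjusted p = 0.116). The call against WT was also lost without any 1 of the Casp1-/- arrays, ASC-/- replicates 2 or 3, or WT replicates 3 or 4 (differences from -0.48 to -0.36, limma adjusted p from 0.0503 to 0.111 in these). The call against ASC-/- was lost without any 1 of the Casp1-/- or ASC-/- arrays (-0.58 to -0.47). The other probe set of Msmo1 lay near the background controls, at 3.08 in Casp1-/-, 3.29 in ASC-/- and 3.33 in WT.

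The second was Abcg1, the transporter that moves cholesterol from cells to high-density lipoprotein and a target of the liver X receptors. Its log2 signal was 9.55, 9.53 and 9.60 on the Casp1-/- arrays, 11.07, 10.64 and 10.40 on the ASC-/- arrays, and 10.14, 10.35, 11.31 and 10.93 on the WT arrays. The Casp1-/- arrays lay close together and below all others, and WT replicate 1 was the nearest to them. The difference was -1.12 ± 0.27 against WT, a 2.18-fold fall (SE, limma adjusted p = 0.0367), and -1.14 ± 0.28 against ASC-/- (SE, limma adjusted p = 0.0429). A further probe set of Abcg1, dimmer at 6.07 in Casp1-/-, 7.49 in ASC-/- and 7.36 in WT, fell by 1.29 against WT (limma adjusted p = 0.0403 over all probe sets). With the spike-in block the difference against WT shrank to -0.58 ± 0.34 (SE, limma adjusted p = 0.572), and that against ASC-/- to -0.43 (limma adjusted p = 0.862). With the actin 3' minus 5' signal as covariate the difference from ASC-/- was -0.68 (limma adjusted p = 0.158). The call against WT was lost without any 1 of the Casp1-/- arrays, ASC-/- replicate 2 or WT replicate 4 (-1.14 to -1.04). The call against ASC-/- held only without WT replicates 1 or 3 (-1.14 in both), and was lost without any other single array (-1.29 to -0.96).

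Macrophages express Abcg1, and 14 of the 20 macrophage markers fell in Casp1-/- fat against WT (limma), beside 8.17% of all genes called. The list median difference was -1.48. With the spike-in block, which rests on WT replicate 1, the differences of all 20 were smaller in size. Atp6v0d2 went from -3.15 to -2.22, Cd14 from -1.29 to -0.51 and Lyz2 from -0.21 to 0.075. Among WT arrays, too, Abcg1 and the macrophage mean were lowest on replicate 1 (10.14 and 10.14) and highest on replicate 3 (11.31 and 11.54). The part of the macrophage content in the fall of Abcg1 was not tested. In whole tissue, fewer cells of a type and less RNA per cell cannot be told apart.

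**Figure D2:**
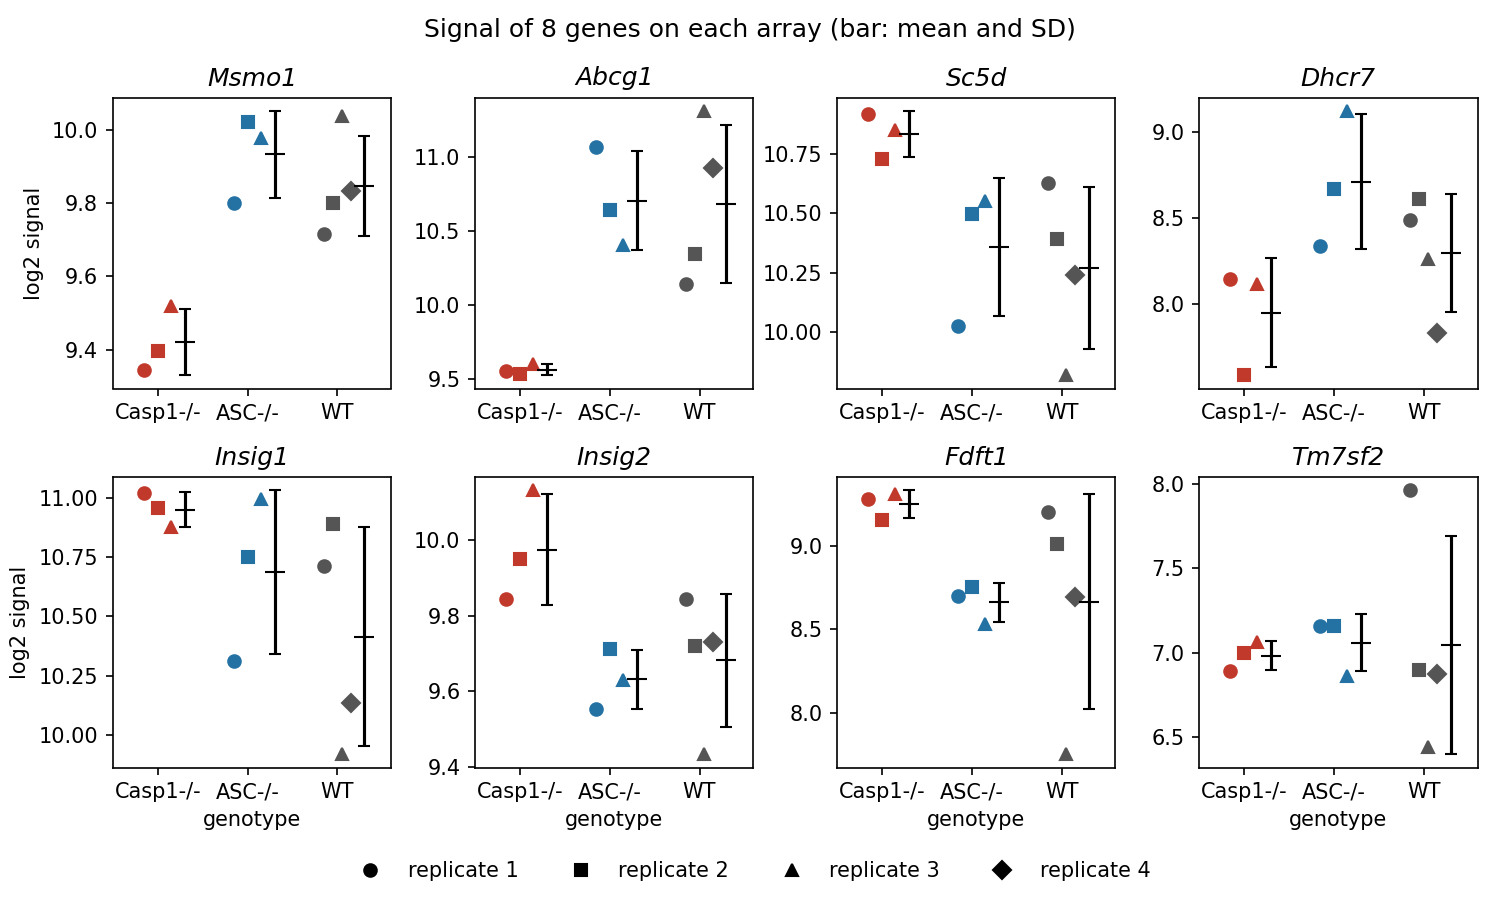
Log2 signal (y axis) of 8 genes on each array by genotype (x axis: Casp1-/-, ASC-/-, WT), with marker shape for the replicate number and a bar for mean and SD. Msmo1 and Abcg1 are lower on all 3 Casp1-/- arrays than on any other array, whereas Fdft1 on WT spans 7.75 to 9.20.

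The promoters of these genes share a sequence feature. SREBP-2 binds the sterol response element together with nuclear factor Y, which binds CCAAT boxes. Of the 24 genes, 19 are in the RefSeq promoter table used here (build GRCm38.p6). In the 250 bases before the start, 18 of the 19 hold CCAAT on either strand, and all 15 enzymes among them do; the exception is Scap. Among all promoters listed there, 33.8% of 32851 hold it, or 37.5% of 27025 genes when a gene counts once. For the sterol response element only the form TCACNCCAC was searched, on both strands and with N for any base. This form is in 1 of the 19 (Hmgcs1), where it overlaps no CCAAT, and in 1.05% of all promoters. Other forms and more distant bases were not searched, so a promoter without a match may still hold such an element. A match describes these letters only, and Msmo1 shares CCAAT with the 14 other enzymes of the table, none of which passed.

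The 250 bases before the start of 4 genes show this, with CCAAT (or ATTGG, its reverse complement) and the sterol response element in capitals, written 5′ to 3′ on the strand of the gene. Msmo1 is the enzyme gene that fell, and Hmgcs1, the enzyme of the step that makes HMG-CoA, holds the sterol response element. Insig1 and Sc5d were chosen after their values were seen, as genes with high signals on the Casp1-/- arrays. The windows are chr8:64733579-64733828 on the minus strand for Msmo1, chr13:119690101-119690350 on the plus strand for Hmgcs1, chr5:28071162-28071411 on the plus strand for Insig1 and chr9:42264301-42264550 on the minus strand for Sc5d.
Msmo1: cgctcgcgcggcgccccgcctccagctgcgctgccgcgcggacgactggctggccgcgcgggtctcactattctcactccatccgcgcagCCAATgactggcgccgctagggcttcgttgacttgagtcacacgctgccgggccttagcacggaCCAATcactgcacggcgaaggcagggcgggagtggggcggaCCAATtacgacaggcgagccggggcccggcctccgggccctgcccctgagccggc
Hmgcs1: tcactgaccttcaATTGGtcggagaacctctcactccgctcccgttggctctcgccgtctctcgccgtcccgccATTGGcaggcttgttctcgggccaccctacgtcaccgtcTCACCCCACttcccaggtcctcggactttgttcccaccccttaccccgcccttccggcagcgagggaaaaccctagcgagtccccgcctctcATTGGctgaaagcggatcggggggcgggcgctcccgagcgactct
Insig1: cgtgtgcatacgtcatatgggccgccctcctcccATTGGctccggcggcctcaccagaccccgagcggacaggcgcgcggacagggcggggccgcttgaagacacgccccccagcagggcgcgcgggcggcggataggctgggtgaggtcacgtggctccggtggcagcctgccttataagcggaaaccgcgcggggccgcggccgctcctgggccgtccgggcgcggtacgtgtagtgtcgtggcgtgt
Sc5d: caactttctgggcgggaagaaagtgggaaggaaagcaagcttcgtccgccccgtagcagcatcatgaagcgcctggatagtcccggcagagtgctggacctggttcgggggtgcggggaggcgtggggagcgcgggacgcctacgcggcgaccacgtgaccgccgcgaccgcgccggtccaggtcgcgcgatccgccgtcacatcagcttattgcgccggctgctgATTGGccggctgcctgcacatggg
Msmo1 thus has 3 CCAAT boxes in the forward direction, Hmgcs1 has 3 in the reverse direction, and Insig1 and Sc5d have 1 each in the reverse direction.

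The enzymes of the mevalonate arm overlapped between genotypes, and 0 of the 6 measured passed in any of the 3 comparisons (limma, 0 of 6 also at an unadjusted p under 0.05). Of all genes, 8.17% passed for Casp1-/- minus WT, 0.0351% for ASC-/- minus WT and 7.39% for Casp1-/- minus ASC-/-. At the unadjusted p these shares were 27.6%, 2.00% and 26.0%. Hmgcs1 had 5.57 ± 0.23 in Casp1-/-, 5.52 ± 0.14 in ASC-/- and 5.67 ± 0.33 in WT (SD, n = 3, 3 and 4, as for all means below). Mvk, which phosphorylates mevalonate, had 7.54 ± 0.076, 7.23 ± 0.37 and 7.08 ± 0.46 in the same order, with a difference of 0.46 ± 0.24 for Casp1-/- minus WT (SE, limma adjusted p = 0.254). Mvd, the decarboxylase that follows, had 6.07 ± 0.45, 6.12 ± 0.35 and 6.01 ± 0.40. Idi1, the isomerase of the isoprene unit, had 8.78 ± 0.18, 8.83 ± 0.34 and 8.74 ± 0.28. The genotypes thus differed by less than the spread between arrays in Mvd and Idi1.

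Fdps, which makes farnesyl diphosphate, had 8.64 ± 0.10 in Casp1-/-, 8.98 ± 0.30 in ASC-/- and 8.75 ± 0.32 in WT. Ggps1, which makes the longer geranylgeranyl diphosphate used to anchor proteins in membranes, had 7.65 ± 0.014, 7.67 ± 0.036 and 7.56 ± 0.061. Its 3 probe sets disagreed in the size of the difference. A dimmer one, at 6.93 in Casp1-/-, 6.45 in ASC-/- and 6.32 in WT, rose by 0.61 in Casp1-/- against WT (limma adjusted p = 0.0314 over all probe sets), while the brightest differed by 0.096 (limma adjusted p = 0.374). The remaining one, at 7.08 in Casp1-/-, 6.71 in ASC-/- and 6.70 in WT, was higher by 0.37 against WT (limma adjusted p = 0.132 over all probe sets). The probe set that rose was picked out after its values were seen.

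In the squalene and sterol arm 1 of 12 enzymes fell in Casp1-/- against WT (Msmo1) and 0 rose. That is 8.33%, beside 8.17% of all genes called. Sc5d, the desaturase of the last steps, came nearest to the threshold among the rest. It had 10.92, 10.73 and 10.85 on the Casp1-/- arrays, 10.03, 10.50 and 10.55 on the ASC-/- arrays, and 10.63, 10.39, 9.82 and 10.24 on the WT arrays. All Casp1-/- arrays were above all other arrays, with a difference of 0.56 ± 0.19 from WT (SE, limma adjusted p = 0.0960). Without WT replicate 1 the difference was 0.68 and passed (limma adjusted p = 0.0349), and with the spike-in block it was 0.21. A second probe set of Sc5d had 9.16 in Casp1-/-, 9.24 in ASC-/- and 8.90 in WT. There the difference from WT was 0.26 (limma adjusted p = 0.567 over all probe sets). Against ASC-/- it was -0.076, so Casp1-/- was not the highest genotype on that probe set. Sc5d and Msmo1, 2 enzymes of the same route, thus lay on opposite sides of WT in Casp1-/- fat; over all genes, arrays of Casp1-/- and WT did not overlap in 24.7%, and in these genes they did not in 3 of 24.

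Dhcr7, the reductase of the final step, was the gene with the widest gap between the null genotypes among the enzymes. It had 8.15, 7.59 and 8.12 on the Casp1-/- arrays, 8.34, 8.67 and 9.12 on the ASC-/- arrays, and 8.49, 8.61, 8.26 and 7.83 on the WT arrays. The null genotypes did not overlap, but WT overlapped both. The difference was -0.76 ± 0.25 between Casp1-/- and ASC-/- (SE, limma adjusted p = 0.0986), -0.35 ± 0.24 for Casp1-/- minus WT and 0.41 ± 0.24 for ASC-/- minus WT (SE). Between Casp1-/- and ASC-/- arrays, 40.4% of all genes did not overlap, and 6 of these 24 did not.

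Fdft1, squalene synthase, showed how far WT mice differed from each other. It had 9.28, 9.16 and 9.31 on the Casp1-/- arrays, 8.70, 8.75 and 8.53 on the ASC-/- arrays, and 9.20, 9.01, 7.75 and 8.69 on the WT arrays. The Casp1-/- arrays were tight and above the ASC-/- arrays, while WT replicate 1 fell among the Casp1-/- values. The difference was 0.59 ± 0.29 for Casp1-/- minus WT and 0.59 ± 0.31 for Casp1-/- minus ASC-/- (SE, limma adjusted p = 0.222 and 0.261). With the spike-in block the first was 0.045.

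Tm7sf2 and Lbr, reductases that act on the same sterol double bond, behaved unlike each other among WT arrays. Tm7sf2 had 6.89, 7.00 and 7.06 on the Casp1-/- arrays, 7.16, 7.16 and 6.86 on the ASC-/- arrays, and 7.96, 6.90, 6.44 and 6.87 on the WT arrays, so that WT replicate 1 was the highest of all. Lbr, which also anchors chromatin to the nuclear envelope, varied little, at 8.60 ± 0.079 in Casp1-/-, 8.50 ± 0.11 in ASC-/- and 8.53 ± 0.060 in WT.

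The other enzymes of this arm overlapped between all genotypes. Sqle, squalene epoxidase, had 7.29 ± 0.25 in Casp1-/-, 7.55 ± 0.12 in ASC-/- and 7.43 ± 0.30 in WT. Lss, which closes the rings to lanosterol, had 7.35 ± 0.15, 7.50 ± 0.34 and 7.28 ± 0.39 in that order. Cyp51, the demethylase that takes up lanosterol, had 8.32 ± 0.085, 8.35 ± 0.17 and 8.29 ± 0.43. The 3 means of Cyp51 lay closer together than those of either gene before it.

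Nsdhl and Hsd17b7, which work with Msmo1 in removing methyl groups, did not pass in any comparison. Nsdhl had 9.70 ± 0.10 in Casp1-/-, 9.75 ± 0.35 in ASC-/- and 9.58 ± 0.34 in WT. Hsd17b7 had 6.09 ± 0.13, 6.24 ± 0.24 and 6.09 ± 0.34. Ebp, the isomerase that moves a sterol double bond, had 9.60 ± 0.057, 9.62 ± 0.29 and 9.57 ± 0.12.

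**Figure D3:**
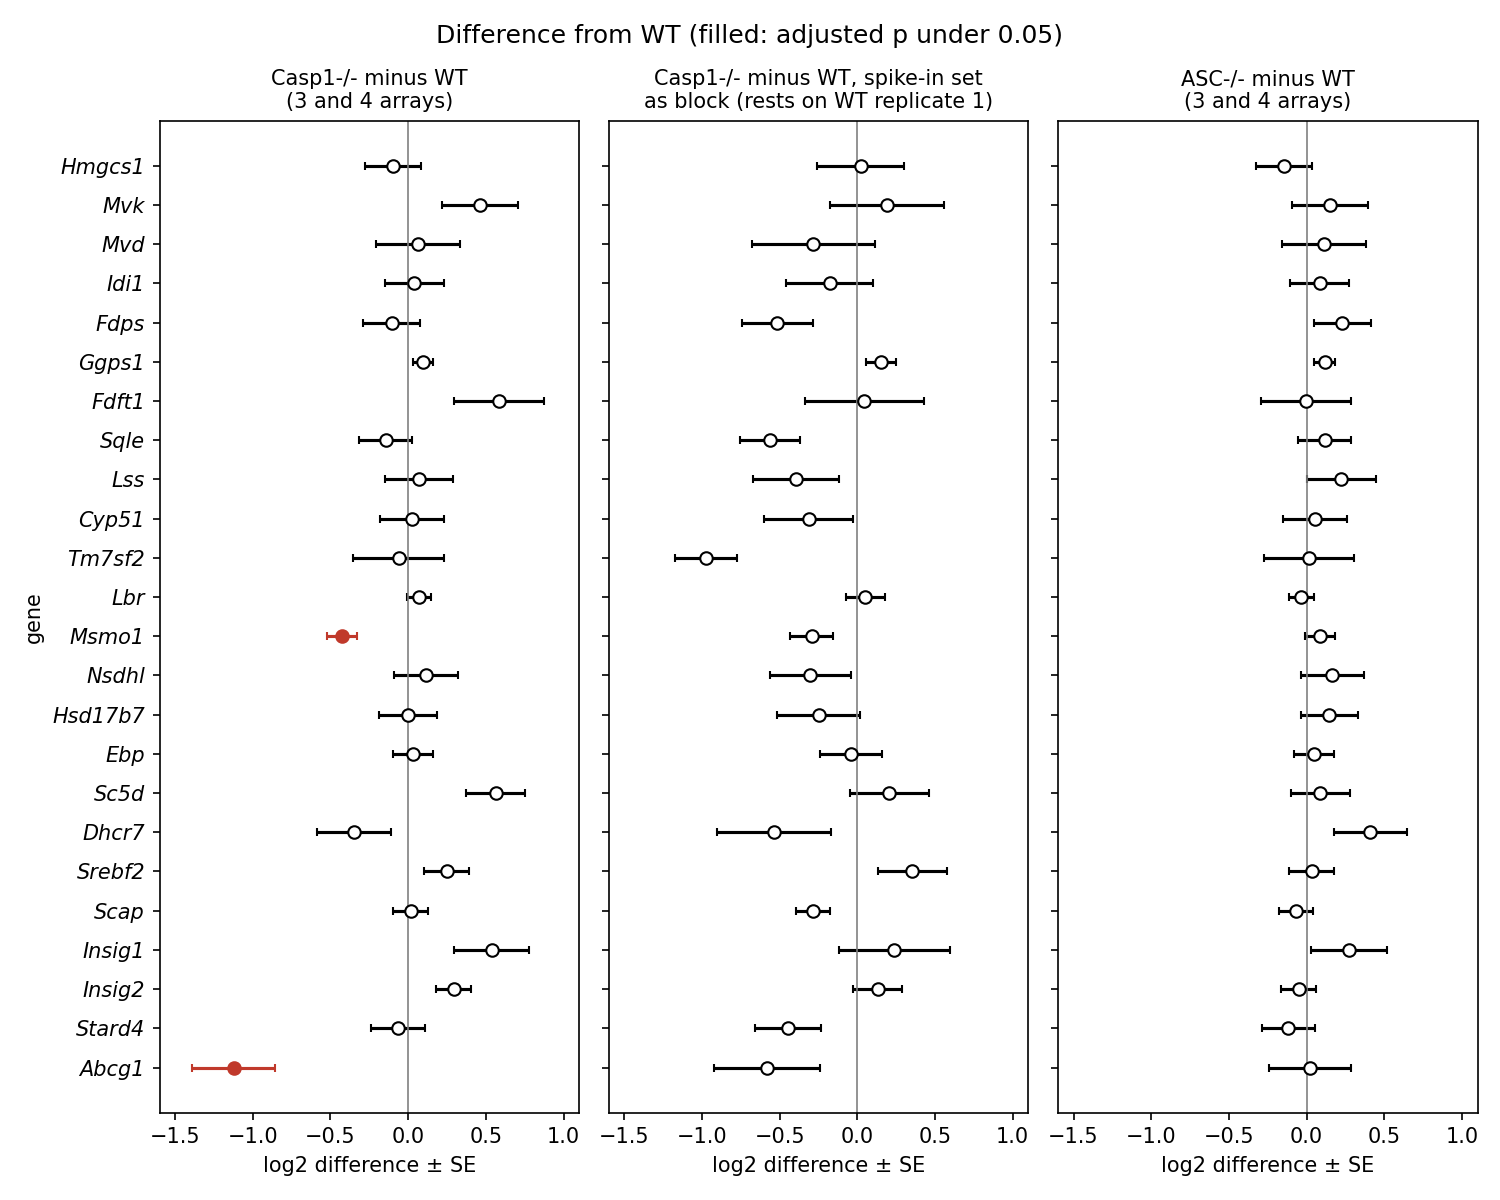
Log2 difference with its standard error (x axis) for each of the 24 genes (y axis), for Casp1-/- minus WT, the same with the spike-in set as a block, and ASC-/- minus WT; filled points passed an adjusted p under 0.05. Msmo1 and Abcg1 are the filled points in the first panel, and neither of the other panels has one.

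Among the genes that control the pathway, 0 of 5 passed in any comparison (limma). At an unadjusted p under 0.05, 1 of 5 (Insig2) differed for Casp1-/- minus WT and for Casp1-/- minus ASC-/-, and 0 of 5 for ASC-/- minus WT (limma). Of all genes, 27.6%, 26.0% and 2.00% did so in that order, and 8.17%, 7.39% and 0.0351% passed the threshold. Insig1, itself switched on by SREBP-2, had 11.02, 10.96 and 10.88 on the Casp1-/- arrays, 10.31, 10.75 and 11.00 on the ASC-/- arrays, and 10.71, 10.89, 9.92 and 10.13 on the WT arrays. WT replicates 3 and 4 were low, and the groups overlapped. The difference was 0.54 ± 0.24 for Casp1-/- minus WT (SE, limma adjusted p = 0.185), and 0.24 with the spike-in block. Insig2, the second retention protein, had 9.84, 9.95 and 10.13 on the Casp1-/- arrays, 9.55, 9.71 and 9.63 on the ASC-/- arrays, and 9.84, 9.72, 9.43 and 9.73 on the WT arrays. Casp1-/- lay above ASC-/- without overlap and met WT replicate 1. The difference was 0.29 ± 0.11 from WT and 0.34 ± 0.12 from ASC-/- (SE, limma adjusted p = 0.129 and 0.108).

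Srebf2 had 6.89, 6.36 and 6.23 on the Casp1-/- arrays, 6.25, 6.18 and 6.40 on the ASC-/- arrays, and 6.14, 6.24, 6.32 and 6.28 on the WT arrays. Only Casp1-/- replicate 1 stood above the rest, and the difference of 0.25 ± 0.14 for Casp1-/- minus WT missed the threshold (SE, limma adjusted p = 0.298). Scap had 8.01, 8.09 and 8.12 on the Casp1-/- arrays, 8.06, 7.89 and 8.00 on the ASC-/- arrays, and 8.36, 7.91, 8.01 and 7.94 on the WT arrays. Apart from WT replicate 1, its arrays differed little. Stard4, which ferries cholesterol between membranes, had 6.73 ± 0.20 in Casp1-/-, 6.68 ± 0.23 in ASC-/- and 6.79 ± 0.28 in WT. The array measures transcripts, and the processing of SREBP-2 from precursor to active form was not measured.

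The median SD of the 24 genes was 0.098 in Casp1-/-, 0.24 in ASC-/- and 0.33 in WT, beside 0.12, 0.12 and 0.17 over all genes. The genes thus spread more than the typical gene in ASC-/- and WT, but not in Casp1-/-. They averaged from 5.59 (Hmgcs1) to 10.66 (Insig1), above the array medians of 4.29 to 4.36 over all probe sets. The SDs were not matched for brightness.

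Within a genotype the enzymes tended to be low on the same array. Of the 18 enzymes, 14 were lowest on ASC-/- replicate 1 among the ASC-/- arrays, where 40.5% of all genes were lowest. Among the WT arrays 9 were lowest on replicate 3 and 6 on replicate 4, beside 30.2% and 19.6% of all genes, and 9 were highest on replicate 1 and 7 on replicate 2, beside 31.2% and 23% of all genes. Among the Casp1-/- arrays 11 were lowest on replicate 2, beside 33.7% of all genes, and 0 were highest there. WT replicate 3, with the lowest enzyme mean of the series (7.75), also had the lowest adipocyte mean (11.09) and the highest macrophage mean (11.54). ASC-/- replicate 1 had the lowest adipocyte mean (11.56) and the highest macrophage mean (11.29) of its genotype. Casp1-/- replicate 2 did not share this, with 12.33 for adipocytes and 8.97 for macrophages, and it held the highest mean of the 8 measured epididymis markers (4.44, against 3.36 to 3.90 on all other arrays). That mean rested on Adam7 (8.31) and Crisp4 (6.35). The other epididymis markers lay between 3.17 and 3.80 on that array, near the background controls. The part of cell content in the enzyme levels was not tested.

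**Figure D4:**
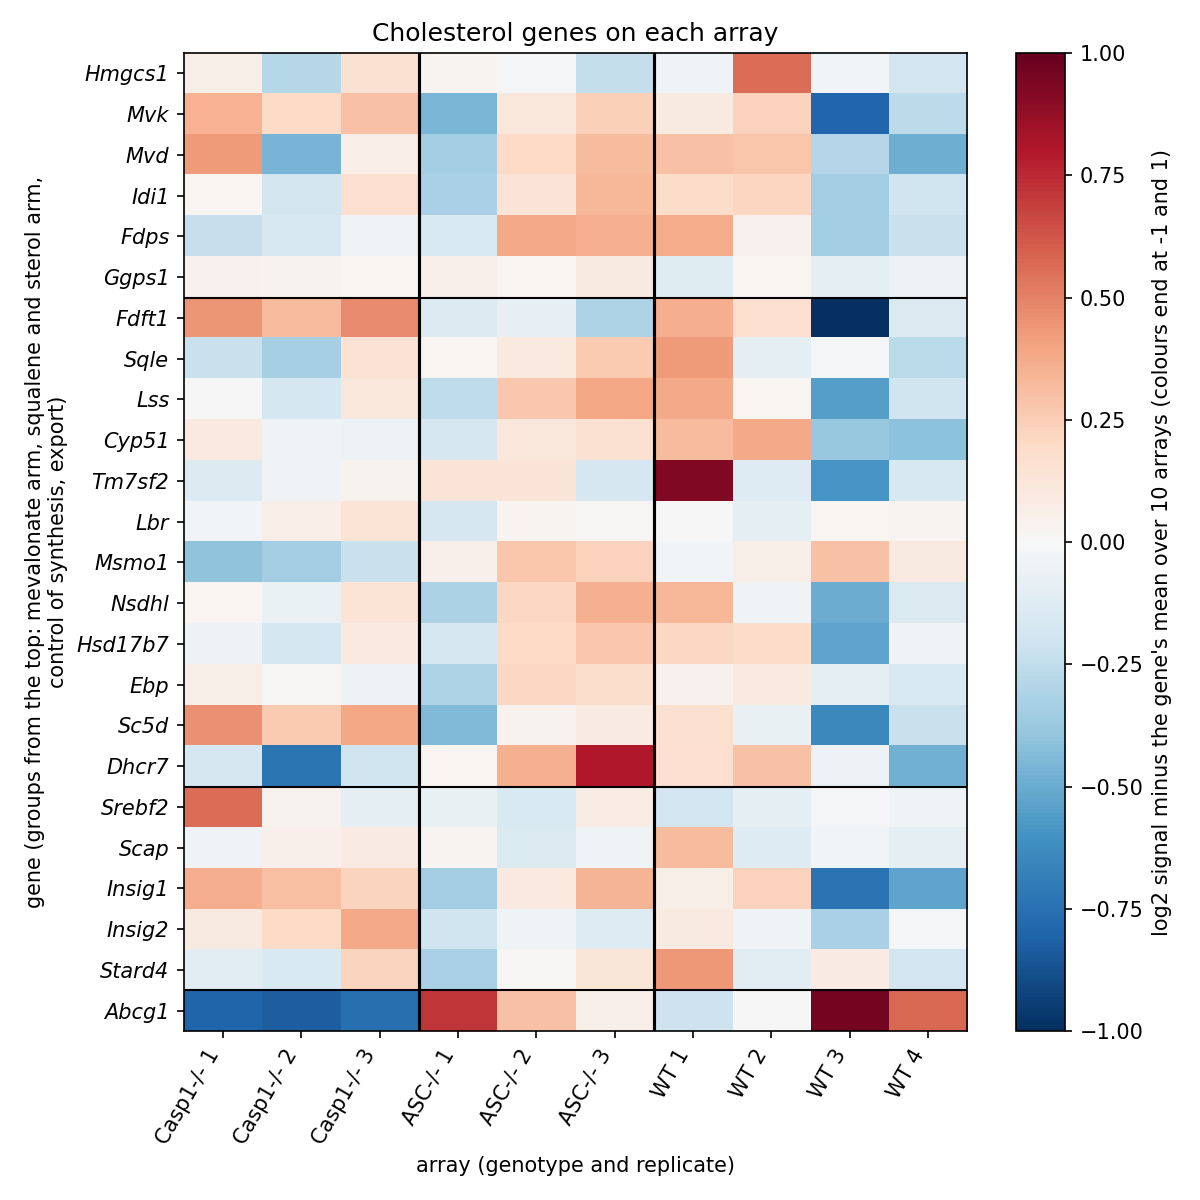
Log2 signal minus the mean of the gene over 10 arrays (colour, from -1 in blue to 1 in red) for 24 genes (rows, ordered by role) on the Casp1-/-, ASC-/- and WT arrays (columns). The enzymes are mostly blue on WT replicate 3 and ASC-/- replicate 1 and red on WT replicate 1, and Abcg1 runs the other way on WT replicate 3 and ASC-/- replicate 1.

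How many of these genes were lower in Casp1-/- fat depended on which WT mouse was taken. Set against WT replicate 1 alone, the array with like spike-in signal, the mean of the Casp1-/- arrays was lower in 15 of the 24 genes and 12 of the 18 enzymes, with a median difference of -0.27 in both. For 10 of the 18 enzymes all 3 Casp1-/- arrays lay below WT replicate 1, beside 27% of all genes. Tm7sf2 differed most (-0.98), followed by Abcg1 (-0.58), Sqle (-0.56), Dhcr7 (-0.54) and Fdps (-0.51). Set against WT replicate 4, the Casp1-/- mean was instead higher in 16 of the 18 enzymes (median 0.16), and against WT replicate 3 in 15 of 18 (median 0.32). Against WT replicate 2 it was lower in 11 of 18 (median -0.067). Over all genes the Casp1-/- mean was lower in 44.5%, 42.6%, 42.8% and 41.8% against WT replicates 1 to 4 in turn. These are comparisons with 1 mouse and have no test of their own. WT replicates 1 and 2 also had more actin 3' minus 5' signal (1.05 and 0.91) than replicates 3 and 4 (0.53 and 0.46). With that signal as covariate, the median difference of the 24 genes for Casp1-/- minus WT was -0.093. The cause of the split between WT mice was not tested.

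With the spike-in set as a block, which pairs Casp1-/- with WT replicate 1 and ASC-/- with WT replicates 2 to 4, 0 of 24 genes passed in either comparison with WT (limma). The lowest adjusted p was 0.0811 for Casp1-/- minus WT, in Tm7sf2 (-0.98 ± 0.20, SE). ASC-/- then lay above WT in 20 of 24 genes with a median of 0.17, and the enzymes above it in 16 of 18 with a median of 0.22. No single gene of these passed, and the spike-in set could not be told apart from the mouse in the Casp1-/- comparison. The share of all genes that lay above WT in that fit was not counted.

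Other genes of the same biology were read from 4 lists. Of 5 measured further synthesis genes (among them Acly and Acss2, which supply acetyl-CoA) and 7 further genes of SREBP control (among them the proteases Mbtps1 and Mbtps2), 0 passed in any comparison (limma; at an unadjusted p under 0.05, 1 of 5 and 3 of 7 for Casp1-/- minus WT, 0 of 5 and 3 of 7 for Casp1-/- minus ASC-/-, and 0 in both for ASC-/- minus WT). Of all genes, 8.17%, 7.39% and 0.0351% passed in these comparisons, in the same order. At the unadjusted p these shares were 27.6%, 26.0% and 2.00%. The median difference for Casp1-/- minus WT was 0.17 in both lists. Synthesis and its control thus gave no call beyond Msmo1 at the brightest probe sets.

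The third list held 10 measured genes of cholesterol uptake, release in lysosomes and breakdown of cholesterol esters. Of these, 3 fell and 0 rose in Casp1-/- against WT, beside 8.17% of all genes called, with a median difference of -0.47. Against ASC-/- 4 fell and 0 rose, beside 7.39% of all genes called. The other members lay on both sides of WT, with Lipe, the hormone-sensitive lipase, at 11.96 in Casp1-/-, 11.18 in ASC-/- and 11.19 in WT (limma adjusted p = 0.0771 against WT). Nceh1, a hydrolase of cholesterol esters, had 7.30, 6.31 and 7.06 on the Casp1-/- arrays, 9.90, 9.31 and 9.23 on the ASC-/- arrays, and 8.76, 9.04, 10.20 and 9.60 on the WT arrays. The Casp1-/- arrays lay far below all others, a 5.69-fold fall from WT (limma adjusted p = 0.0105). Lipa, lysosomal acid lipase, fell 3.29-fold against WT, to 9.41 ± 0.34 in Casp1-/-, with 11.29 ± 0.37 in ASC-/- and 11.12 ± 0.54 in WT (limma adjusted p = 0.0161). Npc1, which passes cholesterol out of the lysosome, fell 2.12-fold against WT, to 7.34 ± 0.16 in Casp1-/-, with 8.56 ± 0.19 in ASC-/- and 8.42 ± 0.57 in WT (limma adjusted p = 0.0412). Lrp1, a receptor that takes up lipoproteins, was lower in Casp1-/- than in ASC-/- fat, with a difference of -0.74 ± 0.18 (SE, limma adjusted p = 0.0423). That call was lost with the spike-in block (-0.22, limma adjusted p = 0.886), with means over probe sets (-0.99, limma adjusted p = 0.0645) and with the actin covariate (-0.49, limma adjusted p = 0.197). Npc2, which works with Npc1 in the lysosome, had 12.90 in Casp1-/-, 12.93 in ASC-/- and 12.84 in WT.

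Of 12 genes of liver X receptor action, oxysterols and lipid carriers, 1 rose and 1 fell in Casp1-/- against WT, and likewise against ASC-/-, beside 8.17% and 7.39% of all genes called. Pltp, which transfers phospholipid to lipoproteins, had 8.95, 9.01 and 8.81 on the Casp1-/- arrays, 10.98, 10.67 and 10.52 on the ASC-/- arrays, and 9.87, 10.43, 11.11 and 10.74 on the WT arrays. It fell 3.06-fold against WT with no overlap (limma adjusted p = 0.0118). Rxra, the partner receptor of the liver X receptors, rose 1.75-fold against WT, to 8.96 ± 0.12 in Casp1-/-, with 8.11 ± 0.23 in ASC-/- and 8.15 ± 0.29 in WT (limma adjusted p = 0.0242; 0.51 in place of 0.81 log2 units with means over probe sets). Nr1h3, a liver X receptor, had 8.58 in Casp1-/-, 8.33 in ASC-/- and 8.31 in WT, and Apoe had 12.57, 12.25 and 12.37 in that order. Neither passed.

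All 5 of the genes of these lists that passed against WT missed the threshold with the spike-in block. The log2 differences were then -1.87 for Nceh1, -1.11 for Lipa, -0.47 for Npc1, -0.94 for Pltp and 0.63 for Rxra (limma adjusted p from 0.152 to 0.648). Against ASC-/- they missed it too, at -1.73, -1.08, -0.40, -0.91 and 0.61 in that order (limma adjusted p from 0.390 to 0.860). With the actin covariate, Lipa (-1.46), Npc1 (-0.70) and Rxra (0.62) missed it against ASC-/- (limma adjusted p = 0.0561, 0.0778 and 0.118). Against WT, all 5 missed it without Casp1-/- replicate 2 (-2.22, -1.52, -1.09, -1.66 and 0.78 for Nceh1, Lipa, Npc1, Pltp and Rxra). All 5 also missed it against WT with the replicate block (limma adjusted p from 0.0883 to 0.156). In the fit of only Casp1-/- and WT, Npc1 and Rxra missed it (limma adjusted p = 0.0901 and 0.0508). Npc1 missed it against WT without any single array other than WT replicates 1 or 2. Rxra missed it against WT without any of the Casp1-/- arrays or WT replicate 4. Against ASC-/- fat, the fall of Lrp1 was lost without any 1 Casp1-/- or ASC-/- array or without WT replicates 2 or 4. The macrophage markers, with a median difference of -1.48, move with the genes of this group that fell, and their part was not tested.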

How the data were processed

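RNA of 10 fat pads was hybridised to Affymetrix HT_MG-430 PM arrays, per the labels' protocols. The deposited values are log2 signals per probe set, made by the authors with RMA (background correction, quantile normalization and probe summary), per the submitters' processing notes, which give no version. RMA forces 1 distribution on all arrays, so a change in total RNA leaves no trace and changes near background are compressed. The genome build was not given in the sources used here. Precision is limited by how few arrays there are.

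Of 45141 probe sets, 28898 have 1 gene symbol, 551 several and 15588 none in the annotation table used here; 104 are controls, of which 23 gave the background and 24 the spike-in mean. Each of 17097 genes is read at its brightest probe set, with no filter. All were fitted with limma 3.58.1 in R 4.3.3 (1 mean per genotype over 10 arrays, 7 residual and 2.43 prior degrees of freedom), two-sided, with Benjamini-Hochberg adjustment over all genes and a threshold of 0.05. On simulated data for Casp1-/- minus WT over 17097 genes, the fit found 75 of 100 genes changed by 1 log2 unit and 94 of 100 changed by 2, and called 9 unchanged genes. The simulated noise was independent between genes and held no difference between spike-in sets, unlike these arrays. Changes under 1 log2 unit were not simulated. "Rose" and "fell" mean past the threshold. The replicates are mice per the labels; the sources do not say whether they shared litters or cages.

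The genes, lists and alternatives were chosen with earlier results of these data known. By the naming rule all members are named, with values on every array for those past the threshold and for Srebf2, Scap, Insig1 and Insig2, and up to 4 genes past the threshold are named for each further list. Array values of Sc5d, Dhcr7, Fdft1, Tm7sf2, Nceh1 and Pltp, and the mention of Acly, Acss2, Mbtps1, Mbtps2, Lipe, Npc2, Nr1h3 and Apoe, were chosen after the values were seen. Alternatives were quantile normalization, median centring, a filter on dim genes, averaging of probe sets, a fit on every probe set, a trended robust step, array weights, fits of 2 groups, replicate and spike-in blocks, actin 3' minus 5' signal as a covariate, and leaving out each array.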

Additional observations from a re-analysis of the deposited data

Results flagged for a closer look

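In 1 of 26 comparisons within the 4 WT arrays (24 genes and 2 array means), 1 array stood far from the others relative to the range, where about 1 in 20 such groups does so by chance. This was Lbr, the lamin B receptor and sterol reductase, at 8.45 on WT replicate 2, with 8.55 to 8.57 on the other WT arrays.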

How the results depend on the processing

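Of 72 differences (24 genes in 3 comparisons), 4 passed the threshold, and 0 of these changed sign in any of 21 alternatives. Of those that did not pass, 42 changed sign in at least 1 alternative, 0 of them past the threshold there, and 5 passed in at least 1 alternative. With array weights 2998 genes passed for Casp1-/- minus WT, and 3428 genes, 4 of the cholesterol genes among them, for Casp1-/- minus ASC-/-. Fits of only the groups compared gave 469 genes and 0 cholesterol genes for Casp1-/- minus WT, 3 genes for ASC-/- minus WT and 3248 genes for Casp1-/- minus ASC-/-. With the spike-in block 120 and 63 genes passed for Casp1-/- minus WT and minus ASC-/-, with 0 cholesterol genes in both and medians of -0.27 and -0.34. Between Casp1-/- and ASC-/- that block also turned Fdft1 to -0.13 and Sc5d to -0.0020, neither of which had passed. With the actin 3' minus 5' signal as covariate 231 genes and 0 cholesterol genes passed for Casp1-/- minus ASC-/-, with a median of -0.22. With means over probe sets, the levels were 7.61 in Casp1-/-, 7.66 in ASC-/- and 7.58 in WT over the 24 genes and 7.49, 7.52 and 7.43 over the enzymes, since dimmer probe sets enter. For Casp1-/- minus WT, 3 cholesterol genes passed with means over probe sets, in place of 2. The cause of the other changes was not tested.

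Without 1 array at a time, 64 (without Casp1-/- replicate 2) to 3018 genes (without WT replicate 1) and 0 to 3 cholesterol genes passed for Casp1-/- minus WT. For ASC-/- minus WT 3 to 6 genes passed, and 0 cholesterol genes in each. For Casp1-/- minus ASC-/- 47 (without ASC-/- replicate 1) to 2615 genes (without WT replicate 3) and 0 to 4 cholesterol genes passed. Sc5d passed against WT with array weights too (0.57), and between Casp1-/- and ASC-/- Dhcr7 (-0.82) and Insig2 (0.31) passed with array weights, Insig2 (0.34) without WT replicate 3, and Fdft1 (0.59) without WT replicate 3 or in the fit of only those groups.

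Arrays with the same replicate number shared little between genotypes. Correlations across genes of their deviations from the genotype mean were -0.260 to 0.185. Such values cannot show whether the numbers mark a shared litter, cage or day, which the labels do not say. With the replicate block 9 genes passed for Casp1-/- minus WT, 3 for ASC-/- minus WT and 19 for Casp1-/- minus ASC-/-, and 0 cholesterol genes in the comparisons of Casp1-/-. A fall near the background signal is compressed. The dimmer probe set of Msmo1, for example, differed by -0.25 for Casp1-/- minus WT (limma adjusted p = 0.168 over all probe sets).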
